A study of Mus musculus with 2 samples.

Results

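Mesothelium is the flat epithelium that covers the abdominal organs and lines the body cavity, and 8 genes known to mark it were looked up in an array study of mouse ureters: Msln, Lrrn4, Wt1, Gpm6a, Bnc1, Upk3b, Muc16 and Rspo1. They were chosen with earlier results of these data known, and were found by gene name. Of the 8, 7 were on the arrays under their own name, each as 1 probe with 4 spots, which makes 28 of the 157716 gene spots. Muc16 was on the arrays only under an Ensembl transcript name, so its values stand apart below. The 7 genes are among 21143 genes that were tested.

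The study asked which transcripts differ in ureters of NMRI mice at postnatal day 4 (P4) when Rbpj is deleted conditionally. The Rbpj-cKO RNAs came from Tbx18(cre/+);Rbpj(fx/fx) ureters and the control RNAs from Tbx18(+/+);Rbpj(fx/n.d.) ureters, so the Rbpj-cKO mice also carried cre at 1 Tbx18 allele. Array 1 held a pair labelled female, whose Rbpj-cKO RNA was labelled red, and array 2 a pair labelled male with the dyes exchanged. Nothing in the sources used here says how many animals gave an RNA, so the spread between the 2 arrays may be partly technical, and the number of arrays limits the precision.

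Mesothelial cells secrete a lubricating fluid, carry a glycoprotein coat and can give rise to fibroblasts and smooth muscle of the organs they cover. Rbpj is a transcription factor that carries Notch signals to their target genes. Tbx18, whose locus drives the cre here, marks the mesenchyme around the ureteric epithelium, and is also known from the epicardium, the mesothelium of the heart. In bulk RNA, more cells of a type and more RNA per cell cannot be told apart.

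Some facts on the 4 RNAs stand beside every value. Rbpj itself had log2 ratios of -0.92 on array 1 and -1.10 on array 2 (limma adjusted p = 0.0853). The Y-linked gene Ddx3y had a normalized log2 level of 11.31 in the Rbpj-cKO RNA labelled female, against 7.08 in its control RNA, and Eif2s3y had 11.97 against 7.70, so that RNA goes against its sex label. The pair labelled male stood higher still, with Ddx3y at 12.92 (Rbpj-cKO) and 13.46 (control) and Eif2s3y at 14.06 and 14.25. Why the level was intermediate was not tested. Xist did not pass the background filter, which asks for signal in both RNAs of a genotype. Each genotype has 1 RNA labelled male, so a gene limited to female RNA could not pass. The levels of Xist are not given here, and its failure to pass is no check of the labels. Because of the mismatch with the label, the ratios of the mesothelial genes are given for each array. Liver genes stood high in 1 RNA, the control of array 2: the summed linear level of 8 such genes was 12797 and 12017 in the Rbpj-cKO RNAs (array 1, array 2), against 8904 and 62786 in the control RNAs. Fat cell genes were lower in the Rbpj-cKO RNAs, with a summed level of 101461 and 112831, against 731129 and 255521. What part these differences have in the mesothelial values was not tested.

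The sequences below show what the arrays read for each gene. Each line gives the first 30 of the 60 bases of the probe, on the strand of the transcript, with its place in build mm9.
Msln, chr17:25885599-25885628, minus strand: tgggtaccaggggtcattgccaaagtttga
Lrrn4, chr2:132694520-132694549, minus strand: ttatcaaagctgaacctgaatatgaatcac
Wt1, chr2:105013656-105013685, plus strand: ggtattagctgcatcactgtgtggatgtca
Gpm6a, chr8:56145539-56145568, plus strand: tcgtgtttgttttaaccttgactctctttt
Bnc1, chr7:89112008-89112037, minus strand: tgcagctttaaaagaagtggattttgtatt
Upk3b, chr5:136520522-136520551, plus strand: tcaccaagtgtactggttagagagtgtaaa
Rspo1, chr4:124686270-124686299, plus strand: ccgtggtacacgtcacggatgacctgactt
Muc16, chr9:18299929-18299958, minus strand: taccttccagtgatggctcttccctagcag

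No annotation of that build was used, so exons and untranslated regions were not assigned. The whole probe of Muc16 held a stop codon in all 3 frames, which a wholly coding stretch would not. The probes of Msln and Muc16 held the polyadenylation motif AATAAA, which stands near the ends of many transcripts. With 1 probe per gene, no second probe checks any of the values, and isoforms cannot be separated.

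Among the 7 genes, 6 were higher in the Rbpj-cKO RNA on both arrays and 0 were lower on both. Over all genes tested, 31.8% were higher on both and 29.7% lower. The median log2 ratio of the 7 genes was 0.99 on array 1 and 0.24 on array 2, and 0.69 for the mean of the arrays. Over all genes it was -0.01 on array 1 and 0.01 on array 2. Gpm6a and Lrrn4 were at least 1.5-fold higher on both arrays, which makes 2 of 7, where 0.402% of all genes were, and 0 of 7 were as much lower, against 0.795%. No gene of the 7 passed limma's adjusted threshold of 0.05 (0 genes, smallest adjusted p 0.0989), which 0.00473% of all genes did. At an unadjusted p under 0.05, 5 of the 7 were higher, against 6.98% of all genes, and 0 were lower, against 7.03%. Under other settings 2 to 5 of the 7 had such a p, with 3 under median centring, the scanner log ratio and a 2-group fit, and 2 in the authors' deposited table. In limma with trend and robust settings, which called 100 of all genes, Lrrn4 passed with an adjusted p of 0.0425. The genes were chosen with earlier results of these data known, so the shares of all genes make no independent test.

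**Figure D1:**
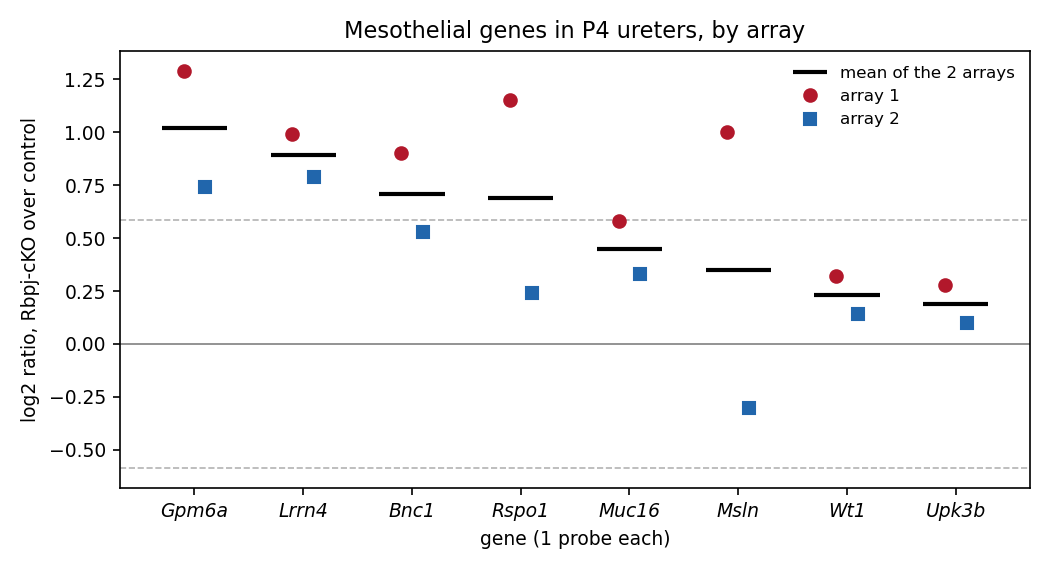
Log2 ratios of Rbpj-cKO over control (vertical axis) for the 7 genes and Muc16, with a circle for array 1, a square for array 2 and a bar for their mean; dashed lines mark 1.5-fold. Gpm6a and Lrrn4 lie above the upper line on both arrays, and Msln is the gene whose 2 points lie on opposite sides of 0.

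Gpm6a, a membrane glycoprotein of the proteolipid family best known from neurons, had the highest mean ratio of the 7. Its normalized log2 level was 11.18 and 10.40 in the Rbpj-cKO RNAs of arrays 1 and 2, against 9.89 and 9.65 in the control RNAs. Both Rbpj-cKO RNAs were above both control RNAs, and that of array 1 stood highest. Array 1 gave a log2 ratio of 1.29 and array 2 one of 0.74. The mean was 1.02 ± 0.39 (SD, n = 2), and limma gave a 95% interval of 0.61 to 1.42 with adjusted p = 0.146. The 4 spots lay between 1.26 and 1.36 on array 1 and between 0.65 and 0.79 on array 2, so the arrays differed by more than their spots. Gpm6a ranked 30 from the top among 21143 genes by mean ratio.

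Lrrn4 encodes a transmembrane protein with leucine-rich repeats, known from the nervous system and used to mark mesothelium. It had levels of 8.88 (array 1) and 8.47 (array 2) in the Rbpj-cKO RNAs, against 7.89 and 7.67 in the controls. The groups did not overlap, and the 2 pairs were more alike than those of Gpm6a. Its log2 ratios were 0.99 on array 1 and 0.79 on array 2 (mean 0.89 ± 0.14, SD, n = 2, 95% interval 0.66 to 1.12, limma adjusted p = 0.0989). By mean ratio Lrrn4 ranked 43, and on array 2 alone 104. The mean was 1.23 in the authors' deposited series table, read as signed fold changes, and 0.84 without background subtraction. Its signal was low. In the control RNAs the unprocessed spot signal was 170.8 over a local background of 25.25 (array 1) and 206.6 over 58.5 (array 2). In the Rbpj-cKO RNAs it was 543.1 over 62.5 and 266.7 over 25.

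Bnc1 encodes basonuclin, a zinc finger protein of stratified epithelia, germ cells and mesothelium. Its levels were 8.02 and 7.41 in the Rbpj-cKO RNAs of arrays 1 and 2, against 7.12 and 6.88 in the controls. The groups did not overlap, but the Rbpj-cKO RNA of array 2 was closer to the array 1 control than to the other Rbpj-cKO RNA. Array 1 gave a log2 ratio of 0.90, and array 2 one of 0.53, just under the 1.5-fold limit (mean 0.71 ± 0.26, SD, n = 2, limma adjusted p = 0.161). The unprocessed spot signal on array 1 was 297.1 for the Rbpj-cKO RNA over a local background of 65.75, and 88.8 for the control RNA over 27.25. On array 2, with the dyes exchanged, it was 111.4 for the Rbpj-cKO RNA over 26.25, and 117 for the control RNA over 63.75. The mean was 0.62 without background subtraction and 1.30 with the scanner's own log ratio.

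Rspo1 is a secreted protein that strengthens WNT signalling through Lgr receptors and directs development of the ovary. Levels of 10.85 and 10.01 in the Rbpj-cKO RNAs of arrays 1 and 2 stood against 9.70 and 9.77 in the controls. The 2 controls nearly coincided, and the array 1 Rbpj-cKO RNA, the one that goes against its sex label, stood apart from the other three. Its log2 ratios of 1.15 (array 1) and 0.24 (array 2) averaged 0.69 ± 0.64 (SD, n = 2, limma adjusted p = 0.322). On each array 1 spot was left out as an outlier. On array 2 alone Rspo1 ranked 1519, so its place among the higher genes rests on array 1.

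Msln encodes mesothelin, a surface glycoprotein that mesothelial cells carry in normal adults. Its levels were 11.93 and 11.08 in the Rbpj-cKO RNAs of arrays 1 and 2, against 10.94 and 11.38 in the controls. The 2 groups overlapped, because the array 2 Rbpj-cKO RNA was below its control. On array 1 Msln had a log2 ratio of 1.00 and ranked 50 among the 21143 genes, while on array 2 it had -0.30 and ranked 20155. Its mean of 0.35 ± 0.92 (SD, n = 2, 95% interval -0.51 to 1.21, limma adjusted p = 0.709) describes neither pair. The 4 spots stayed between 0.97 and 1.02 on array 1 and between -0.34 and -0.22 on array 2, so the opposite signs were not scatter among spots. Over all genes, 16.2% were higher on array 1 and lower on array 2.

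**Figure D2:**
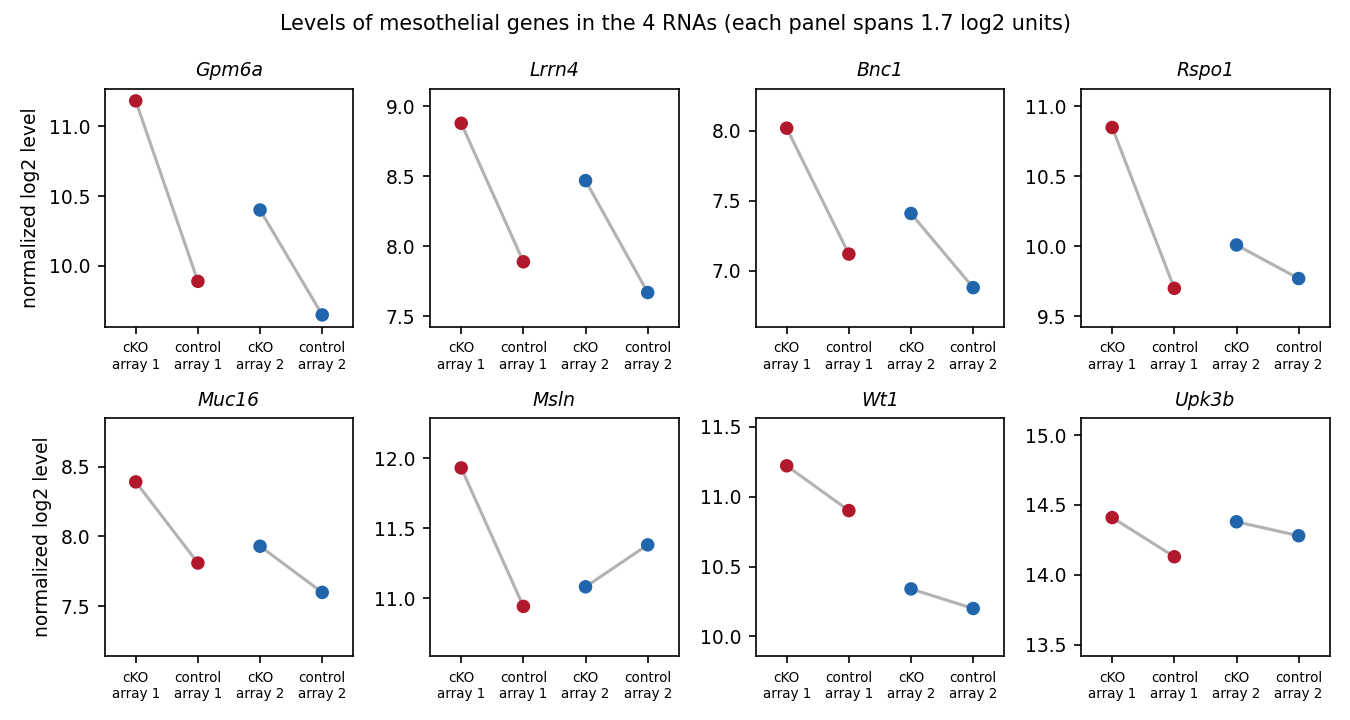
Normalized log2 level (vertical axis, each panel spanning the same range in log2 units) in the 4 RNAs, with the Rbpj-cKO RNA left of its control in each pair, red for array 1 and blue for array 2. Grey lines join the RNAs of 1 array. In all panels but that of Msln both lines slope down toward the control, and the array 1 Rbpj-cKO RNA is the highest point in every panel.

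Wt1, a zinc finger transcription factor of mesothelium that also serves nephron progenitors and podocytes of the kidney, differed less. Its levels were 11.22 and 10.34 in the Rbpj-cKO RNAs of arrays 1 and 2, against 10.90 and 10.20 in the controls. The groups overlapped, since both RNAs of array 1 were above both of array 2, whatever the genotype. Log2 ratios of 0.32 and 0.14 gave a mean of 0.23 ± 0.12 (SD, n = 2, limma adjusted p = 0.349, with 1 spot left out on array 1).

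Upk3b is a uroplakin, a membrane protein that also belongs to the urothelium, the epithelium inside the ureter. It had levels of 14.41 and 14.38 in the Rbpj-cKO RNAs of arrays 1 and 2, against 14.13 and 14.28 in the controls. The 2 groups did not overlap, but all 4 values lay close together. The log2 ratios of 0.28 and 0.10 (mean 0.19 ± 0.13, SD, n = 2, limma adjusted p = 0.421) were the lowest mean of the 7. With median centring in place of loess the ratio on array 2 was -0.05, so its direction on array 2 depended on the normalization.

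Muc16, the large membrane mucin to which mesothelin binds, is known to clinicians as CA125. Its probe carries an accession that RefSeq assigns to Muc16. The levels were 8.39 and 7.93 in the Rbpj-cKO RNAs of arrays 1 and 2, against 7.81 and 7.60 in the controls. Here too the groups did not overlap, and the log2 ratios of 0.58 and 0.33 (mean 0.45 ± 0.18, SD, n = 2, limma adjusted p = 0.206) gave a mean between those of Bnc1 and Wt1. Mesothelin and its mucin partner thus had unlike ratios on array 2, -0.30 and 0.33.

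With Muc16 added, both Rbpj-cKO levels were above both control levels for 6 of 8 genes, and for 22.3% of all genes. Both were below both control levels for 0 of 8, and for 20.7% of all genes. For all 8 the ratio was higher on array 1, where 42.6% of all genes had it higher. At least 1.5-fold higher on array 1 were 5 of the 7 genes found by name (Gpm6a, Rspo1, Msln, Lrrn4 and Bnc1), against 0.955% of all genes, and on array 2 it was 2 of 7 (Lrrn4 and Gpm6a), against 1.22%. Dye orientation, sex label and replicate differ together between the arrays and cannot be told apart, and the Rbpj-cKO RNA of array 1 goes against its sex label, so array 1 is no clean female pair. No test of array 1 against array 2 was run.

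**Figure D3:**
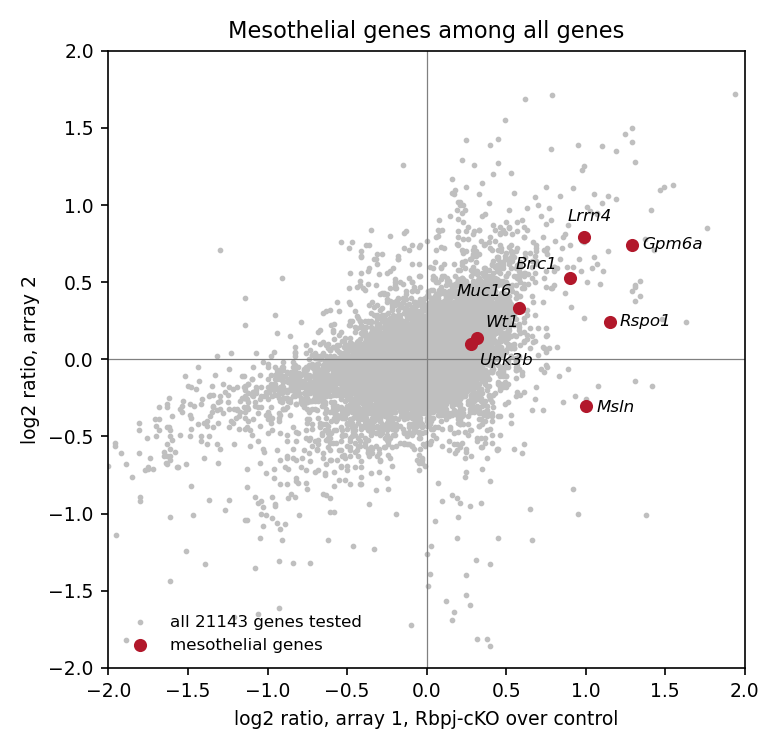
Log2 ratio of Rbpj-cKO over control on array 1 (horizontal axis) against array 2 (vertical axis), with 1 grey point for each gene tested and red points for the 7 genes and Muc16; 95 genes lie beyond the axes, which end at 2. Lrrn4, Gpm6a and Bnc1 lie in the upper right, and Rspo1 and Msln far to the right but near or below 0 on array 2. Of the red points, Wt1 and Upk3b lie nearest to 0 on both arrays, among many grey points.

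The 8 genes were set beside 16 other genes of mesothelium, of which 15 were above background. Of these, 5 were higher on both arrays, 3 were lower on both, and 1 was at least 1.5-fold higher on both, where 31.8%, 29.7% and 0.402% of all genes were. The medians were 0.12 on array 1 and -0.06 on array 2. The median of the means was 0.02, and -0.01 with median centring. Its 1 gene past 1.5-fold was Nkain4, a small membrane protein that interacts with the sodium pump. Nkain4 had levels of 12.36 and 12.44 in the Rbpj-cKO RNAs of arrays 1 and 2, against 11.67 and 11.81 in the controls. The groups did not overlap and the pairs were nearly alike, with log2 ratios of 0.69 and 0.62 (mean 0.66 ± 0.05, SD, n = 2, limma adjusted p = 0.114).

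Several genes of this second list also belong to the urothelium. Upk1b, a tetraspanin partner of the uroplakins, had log2 ratios of 0.55 and 0.10. The keratins Krt8, Krt18, Krt7 and Krt19 had ratios between 0.10 and 0.47 on array 1 and between -0.24 and -0.05 on array 2. Podoplanin, Pdpn, a mucin-type surface protein shared with lymphatic vessels, had 0.27 and 0.14. Aldh1a2, an enzyme that makes retinoic acid in embryonic mesothelium, had -0.13 and 0.16, and Cldn15, a claudin that forms cation pores, -0.47 and -0.16 (mean -0.32 ± 0.22, SD, n = 2, limma adjusted p = 0.322). Calb2, calretinin, a standard mesothelial stain in human pathology, was not well above background.

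Relatives of the 8 genes by family were also read, and 10 of the 12 were above background. Of these 3 were higher and 2 lower on both arrays, where 31.8% and 29.7% of all genes were, with medians of 0.11 and -0.03. Lrrn3, a relative of Lrrn4, had levels of 10.20 and 10.24 in the Rbpj-cKO RNAs of arrays 1 and 2, against 9.66 and 9.58 in the controls, and log2 ratios of 0.55 and 0.66 (mean 0.60 ± 0.08, SD, n = 2, limma adjusted p = 0.131). Lrrn1 had 0.18 and -0.14, and Lrrn2 -0.02 and 0.27. Gpm6b, a relative of Gpm6a, had 0.16 and 0.07. Mslnl, the mesothelin-like gene, had -0.18 and -0.31. Of the relatives of Upk3b, Upk3a had 0.56 and -0.07, and Upk3bl -0.33 and -0.32. Bnc2 had 0.06 and -0.14.

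Of the R-spondins, Rspo3 had 0.23 and 0.02, and Rspo2 and Rspo4 were not well above background. Of 6 genes that receive the R-spondin signal or answer to it, 2 were higher and 2 lower on both arrays. That is near the shares of all genes, 31.8% and 29.7%. Lgr5, a receptor of R-spondins, had log2 ratios of 0.35 and 0.93 (mean 0.64 ± 0.41, SD, n = 2, limma adjusted p = 0.247). Its ratio was the higher one on array 2, while that of Rspo1 was the higher one on array 1. Axin2, a target of WNT signalling, had -0.13 and 0.32, and Znrf3, a ubiquitin ligase that removes WNT receptors, -0.09 and -0.27.

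**Figure D4:**
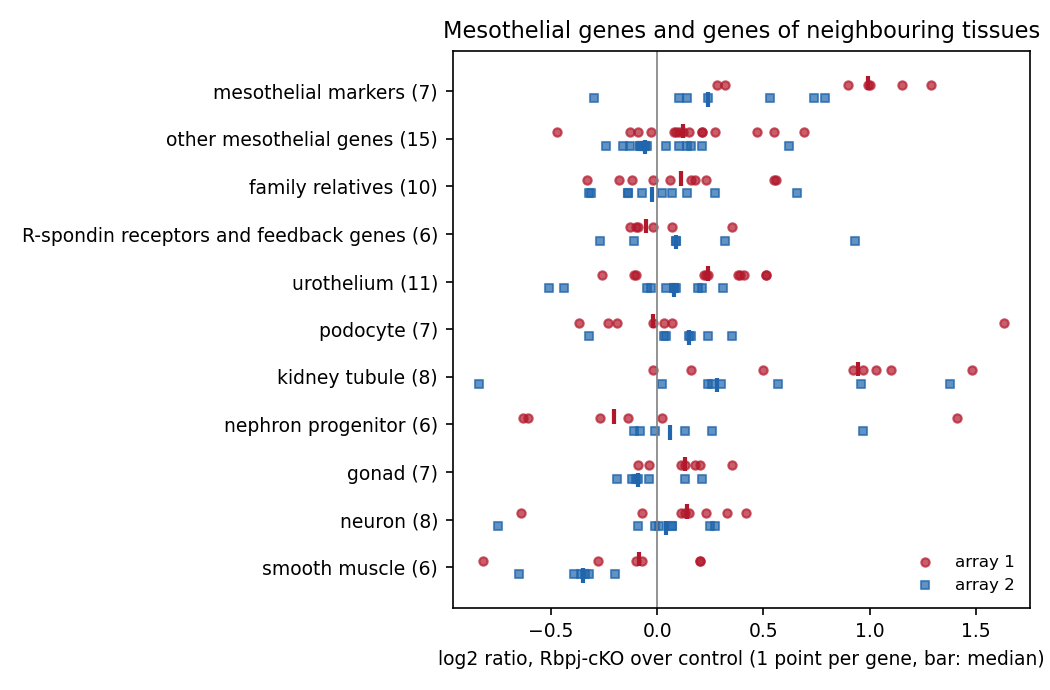
Log2 ratios of Rbpj-cKO over control (horizontal axis) for the genes above background in each list, with their number in brackets, circles for array 1, squares for array 2 and a bar at each median. The mesothelial markers and the kidney tubule genes have the medians farthest to the right on array 1, at 0.99 and 0.94.

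Markers of tissues that could also hold these genes differed between the RNAs. For the counts below, 31.8% of all genes were higher on both arrays and 29.7% were lower. Of 11 urothelium genes, 6 were higher on both arrays and 2 were lower, with medians of 0.24 and 0.08 and a summed level of 555694 and 531925 in the Rbpj-cKO RNAs (array 1, array 2), against 442500 and 514291 in the controls. By mean ratio Krt14 was lowest, with -0.26 and -0.51, and Trp63 highest, with 0.38 and 0.31. Among kidney tubule genes, 6 of 8 were higher on both arrays, with medians of 0.94 and 0.28, and a summed level of 3840 and 3130, against 2410 and 2502. At least 1.5-fold higher on both arrays were 2 of the 8, against 0.402% of all genes. At an unadjusted limma p under 0.05, 5 of the 8 were higher and 0 lower, against 6.98% and 7.03% of all genes. The smallest limma adjusted p was 0.0819, so these counts were much like those of the mesothelial markers. Among the tubule genes Kap had 1.10 and 1.38, Lrp2 1.03 and 0.96, and Umod 1.48 and 0.26. Named after their values were seen, the 2 that were not higher on both were Cdh16 with 0.92 and -0.84 and Aqp2 with -0.02 and 0.02. Slc12a1 was not well above background.

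Podocytes share Wt1 with mesothelium. Their list had medians of -0.02 and 0.15 and a summed level of 31654 and 29410 in the Rbpj-cKO RNAs, against 39286 and 34214. The defining gene Nphs1 was not well above background. Nephron progenitor genes had medians of -0.21 and 0.06, with Six2 at 1.41 and 0.97 and the other 5 between -0.63 and 0.26 on either array. In the gonad list, which stands for another site of Rspo1 and Wt1, 7 of 9 genes were above background, with medians of 0.13 and -0.09. Higher on both arrays were 2, Nr5a1 with 0.35 and 0.13 and Ddx4 with 0.18 and 0.21. Lower on both were 2, Foxl2 with -0.04 and -0.12 and Lhx9 with -0.09 and -0.09. Over all genes tested, 31.8% were higher and 29.7% lower on both. Amh and Dppa4 were not well above background. Neuron genes, which bear on Gpm6a, had medians of 0.14 and 0.04, with 5 of 8 higher and 2 lower on both arrays. Their summed level was 46095 and 44845 in the Rbpj-cKO RNAs, against 56709 and 59508 in the controls, a sum led by Uchl1, which had ratios of -0.64 and -0.75. What part any of these tissues has in the mesothelial values was not tested.

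The 5 named genes whose 2 ratios were nearest to the medians of the 7 (0.99 on array 1, 0.24 on array 2), by Euclidean distance over 2 arrays and among 15183 named genes, were Cartpt, Myl7, Slc46a2, Pdzk1 and Kcnj16. Cartpt lay at 0.99 and 0.27, a distance of 0.027. The other four were 0.134 to 0.244 away, and this likeness rests on 2 points per gene.

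Gpm6a and Lrrn4 had the highest mean ratios of the 7, and the deleted factor Rbpj binds DNA at the core motif TGGGAA, so the 250 bases before their starts are shown, on the strand of the gene, from RefSeq sequence of build GRCm38.p6. Capitals mark TGGGAA on either strand.
Lrrn4, chr2:132880863-132881112, minus strand: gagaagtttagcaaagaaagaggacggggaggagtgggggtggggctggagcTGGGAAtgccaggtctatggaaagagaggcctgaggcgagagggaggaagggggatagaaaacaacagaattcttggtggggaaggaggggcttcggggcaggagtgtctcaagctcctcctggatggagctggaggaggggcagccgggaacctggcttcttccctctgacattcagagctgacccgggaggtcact
Gpm6a, chr8:54779184-54779433, plus strand: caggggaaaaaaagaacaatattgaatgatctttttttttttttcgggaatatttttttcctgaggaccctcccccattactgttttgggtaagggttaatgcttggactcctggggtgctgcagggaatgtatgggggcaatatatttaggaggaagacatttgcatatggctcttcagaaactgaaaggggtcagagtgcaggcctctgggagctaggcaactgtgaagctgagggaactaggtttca

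The window of Lrrn4 held 1 match, which begins 198 bases before the start. The one shown for Gpm6a held none, and its second window held 1 on the opposite strand, within the 50 bases after the start. Of the 7 windows of 6 genes in the table, 2 held the motif within 300 bases (250 before and 50 after the start), as did 25.6% of the 32851 windows of that length. Msln and Wt1 were not matched there. A match is a run of letters and no measured binding.

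**Figure D5:**
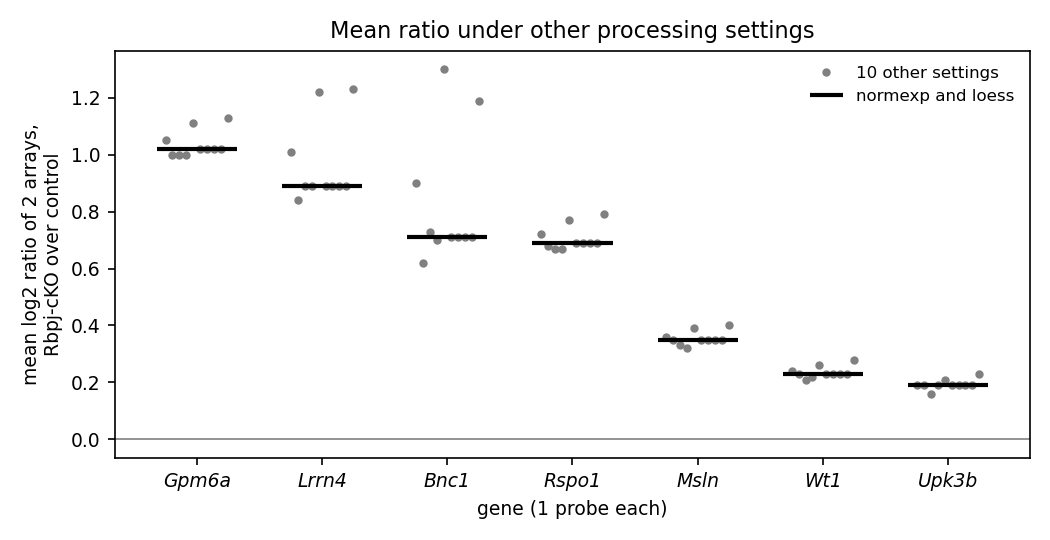
Mean log2 ratio of Rbpj-cKO over control over both arrays (vertical axis) for the 7 genes, with a black bar for normexp and loess and a grey point for each of 10 other settings. All points lie above 0, and those of Bnc1 spread most, up to 1.30.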

How the data were processed

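Total RNA of P4 ureters was hybridised on 2 two-colour Agilent arrays, each with an Rbpj-cKO and a control RNA. The deposited spot values are fluorescence intensities from Agilent Feature Extraction 10.7.3.1, per the file headers. The deposited LogRatio column is a log10 ratio of red over green, per the file headers. The authors' deposited series table is a score without a stated scale and was taken as signed fold changes, since 0 values lay inside -1 to 1. Its column medians were 1, its centring is unknown, and it correlated with the scanner log ratio across probes (Pearson's r 0.777 and 0.686). Exactly 1 were 31.8% of its values for array 1 and 31.6% for array 2, read here as a log2 ratio of 0, which limits it as a check.

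Signals were corrected with normexp (offset 50), normalized by loess, turned to Rbpj-cKO over control and averaged over the spots of a probe after outlier spots were dropped (3.34% and 3.12%). Between 71.8% and 74.0% of gene spots were well above background in each channel, and 0 were saturated. Probes were kept if over 50% of their spots were well above background in both RNAs of at least 1 genotype (28176 of 39429 before naming), the brightest probe stood for a gene, and names came from RefSeq through the probe's accession (28328 probes). Levels per RNA are log2 values after Aquantile. The test was limma 3.58.1 in R 4.3.3 (lmFit, eBayes, 1 residual degree of freedom, 4.37 with the prior), with Benjamini-Hochberg adjustment over 21143 genes. The same steps were run on simulated arrays with known changes. There only the direction and size of the changes were checked, not the error rate of the adjusted p. The 2 arrays, on 1 slide and scanned on 1 day, correlated with r = 0.454 over all genes. Members, lists and the naming rule (all members, any gene of the mesothelial, family and R-spondin lists, up to 4 of each other list, 5 genes of like pattern) were chosen with earlier results of these data known.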

Additional observations from a re-analysis of the deposited data

Results flagged for a closer look

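Msln had ratios of opposite sign on the 2 arrays, with a log2 ratio of Rbpj-cKO over control of 1.00 on array 1, whose Rbpj-cKO RNA goes against its sex label, and -0.30 on array 2. The difference itself was not tested. The probe of Muc16, which is listed under an Ensembl transcript and was not found by gene name, gave a signal that was higher in the Rbpj-cKO than in the control RNA, with 0.58 and 0.33.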

How the results depend on the processing

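The mean log2 ratio of each of the 7 genes stayed above 0 under all 10 other settings. On both arrays 5 or 6 of the 7 were higher, against 24.2% to 38.7% of all genes. In limma 0 of the 7 were called in the main setting and in 9 others (5 at an unadjusted p under 0.05 in the main setting and 2 to 5 in the others, smallest adjusted p 0.0787 to 0.577), and 1, Lrrn4, with trend and robust settings. Over all genes the calls were 1 in the main setting, 0 with median centring, scaling between arrays, the scanner log ratio, the series table and a 2-group fit of the 4 channels, and 100 with trend and robust settings. At least 1.5-fold higher on both arrays were 2 to 3 of the 7, against 0.283% to 1.16% of all genes. The count of 3 came with offset 16, the scanner log ratio and the series table, where the share of all genes was 0.568%, 1.16% and 0.728%. The mean of Bnc1 moved between 0.62 and 1.30, and that of Lrrn4 between 0.84 and 1.23.

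With 1 array left no test can be run. Leaving out array 1 or array 2 gave medians of 0.24 and 0.99 for the 7 genes, of which 6 and 7 were higher. At least 1.5-fold higher were 2 and 5 of the 7, against 1.22% and 0.955% of all genes. Without array 1 Msln reversed to -0.30, and without array 2 it had 1.00. The median of the other mesothelial genes, 0.02, reversed to -0.06 without array 1 and to -0.01 with median centring, and was 0.12 without array 2. The cause of these changes was not tested. The main limma test is paired, since it uses the ratio within each array. Without that pairing, in the 2-group fit, the adjusted p of Lrrn4 was 0.207, against 0.0989. The 2 arrays, and the low signals of Bnc1, Lrrn4 and Muc16, limit the precision.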
